A study of Mus musculus with 13 samples.

Results

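The SMAD transducer genes are the 6 genes Smad1, Smad2, Smad3, Smad4, Smad5 and Smad9, of 21938 protein-coding genes in the GENCODE M21 annotation of mm10. They were chosen by name, as the genes whose proteins carry the signal, and the inhibitory Smad6 and Smad7 were kept apart. The window of each gene was its annotated span plus 10 kb on each side, and every peak or differential site sharing at least 1 bp with it was described. The data are chromatin immunoprecipitation followed by sequencing (ChIP-seq) in mouse embryonic fibroblasts (MEFs), the starting cells for reprogramming to pluripotency. The MEFs came from embryos of both sexes, heterozygous for a Nanog-GFP reporter and for tetO-MKOS-ires-mOrange at Sp3, with CAG-rtTA, on a mixed 129 and CD1 background. Doxycycline (dox) turns on the cassette, whose letters stand for the factors Myc, Klf4, Oct4 and Sox2. All samples, those without dox included, had been infected with a retrovirus for Smad3CA, a constitutively active Smad3, and were taken on day 3. OCT4 was precipitated from cells given 1 µg/ml dox (Dox+, n = 3), and SMAD3 from Dox+ cells (n = 3) and from cells without dox (Dox-, n = 3). Input DNA was sequenced from 2 Dox+ and 2 Dox- samples. Nothing in the labels says that replicates were separate cultures, so the p-values measure only the spread between these samples. No sample lacked Smad3CA, and the antibody was labelled only Smad3, so endogenous and retroviral SMAD3 cannot be told apart.

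SMADs transmit signals of the TGF-β family from the membrane to chromatin. Activated type I receptors phosphorylate the receptor-regulated SMADs: SMAD2 and SMAD3 respond mainly to TGF-β, activin and Nodal, and SMAD1, SMAD5 and SMAD9 (also called SMAD8) mainly to bone morphogenetic proteins (BMPs). They join SMAD4, the common partner of both branches, and the complexes enter the nucleus, where they bind DNA weakly and act with other transcription factors. Genes of the pathway, the inhibitory SMADs among them, are themselves known targets of SMAD complexes.

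Sequences of the places described below were taken from RefSeq promoters (GRCm38.p6) and from the GRCm38 genome, in the direction of the gene. The 250 bases upstream of the RefSeq start of 4 members are shown beside the SMAD3 promoter peaks (2 of the 6 members have no entry used here). The merged Dox+ peak covers all 250 bases for Smad3 and Smad5, and the peak of Dox+ replicate 2 covers all 250 for Smad9. For Smad1, 90 of the bases lie inside the GENCODE gene, and the merged Dox+ peak covers 101 of the 250. Capitals mark matches, on either strand, to the SMAD elements CAGAC, GTCTAGAC and GGCGCC, the octamer ATGCAAAT, the AP-1 site TGANTCA and the KLF box GGGNGTGG.
Smad1 promoter, chr8:79399429-79399678, minus strand: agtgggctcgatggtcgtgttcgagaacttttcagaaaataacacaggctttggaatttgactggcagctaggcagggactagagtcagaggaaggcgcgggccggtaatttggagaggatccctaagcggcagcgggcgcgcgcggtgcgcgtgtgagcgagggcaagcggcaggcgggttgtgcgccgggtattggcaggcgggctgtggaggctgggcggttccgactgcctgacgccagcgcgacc
Smad5 promoter, chr13:56702760-56703009, plus strand: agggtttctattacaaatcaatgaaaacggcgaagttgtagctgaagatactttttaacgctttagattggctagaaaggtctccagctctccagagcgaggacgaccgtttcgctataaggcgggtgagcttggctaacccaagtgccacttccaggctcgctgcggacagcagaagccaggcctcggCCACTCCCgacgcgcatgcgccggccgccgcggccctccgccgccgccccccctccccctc
Smad9 promoter, chr3:54755332-54755581, plus strand: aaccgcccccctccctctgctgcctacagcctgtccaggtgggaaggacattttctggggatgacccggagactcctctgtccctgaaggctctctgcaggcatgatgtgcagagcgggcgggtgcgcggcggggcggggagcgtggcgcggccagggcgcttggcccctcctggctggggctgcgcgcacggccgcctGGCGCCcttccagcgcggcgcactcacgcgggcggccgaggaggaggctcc
Smad3 promoter, chr9:63757995-63758244, minus strand: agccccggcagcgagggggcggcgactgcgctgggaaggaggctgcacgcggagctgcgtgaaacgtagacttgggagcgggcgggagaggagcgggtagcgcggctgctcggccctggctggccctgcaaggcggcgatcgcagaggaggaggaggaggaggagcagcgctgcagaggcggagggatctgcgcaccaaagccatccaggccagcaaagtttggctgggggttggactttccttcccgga
These promoters were rich in GC, with 63.6% for Smad1, 60% for Smad5, 73.2% for Smad9 and 69.2% for Smad3, against a median of 52.4% over 32841 RefSeq promoter windows of the same length. They held 22 to 25 CpG dinucleotides, against a median of 6. CAGAC, found in 42.2% of all promoter windows, was in none of the 4. Smad9 held 1 GGCGCC, which 9.59% of promoter windows hold, and Smad5 held 1 match to GGGNGTGG, which 15.9% hold. GTCTAGAC, ATGCAAAT and TGANTCA were in none of the 4, and 0.167%, 1.6% and 6.75% of all promoter windows hold them.

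SMAD3 peaks lay over the promoters of 5 of the 6 transducer genes in the merged lists (peaks called on pooled replicates), both with and without dox. Smad9 had no peak in either merged list. A peak within 1 kb of an annotated transcript start was found for 42.5% of all protein-coding genes in the merged Dox+ list and for 37.8% in the merged Dox- list, and 33.6% had one in both. Within the whole window a peak was found for 52.5% of genes in merged Dox+ and 48% in merged Dox-, and for the same 5 members in each. All 6 members are longer than the median protein-coding gene (17.4 kb). Shares were higher among genes of like window length (the shorter window at least 0.8 times the longer). For Smad1, Smad2, Smad4 and Smad5 they were 62.4% to 65.3% in merged Dox+ and 56.7% to 60.8% in merged Dox-. For Smad3 the share was 66.9% in merged Dox+. These are shares of genes with any peak in the window, not at the promoter. The replicate lists differed widely in length, from 420 to 23981 peaks in Dox+ and from 1656 to 18588 in Dox-. The number of members with a promoter peak followed this length. It was 1, 6 and 5 in Dox+ replicates 1, 2 and 3, where 1.72%, 50.5% and 36.2% of genes had one, and 1, 5 and 3 in Dox-, where 7.62%, 43.8% and 14.9% had one. Within the whole window it was 1, 6 and 5 members in Dox+, beside 2.57%, 63% and 47% of genes, and 1, 5 and 4 in Dox-, beside 10.8%, 56.3% and 22.2%. A promoter peak in at least 2 Dox+ and at least 2 Dox- replicate lists was found for 15% of genes, and for Smad1, Smad4 and Smad5. Whether list length explains which members had a peak was not tested. The read depth behind each replicate list is unknown, because the files hold no counts. A missing peak therefore means that none was called, not that SMAD3 was absent.

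**Figure D1:**
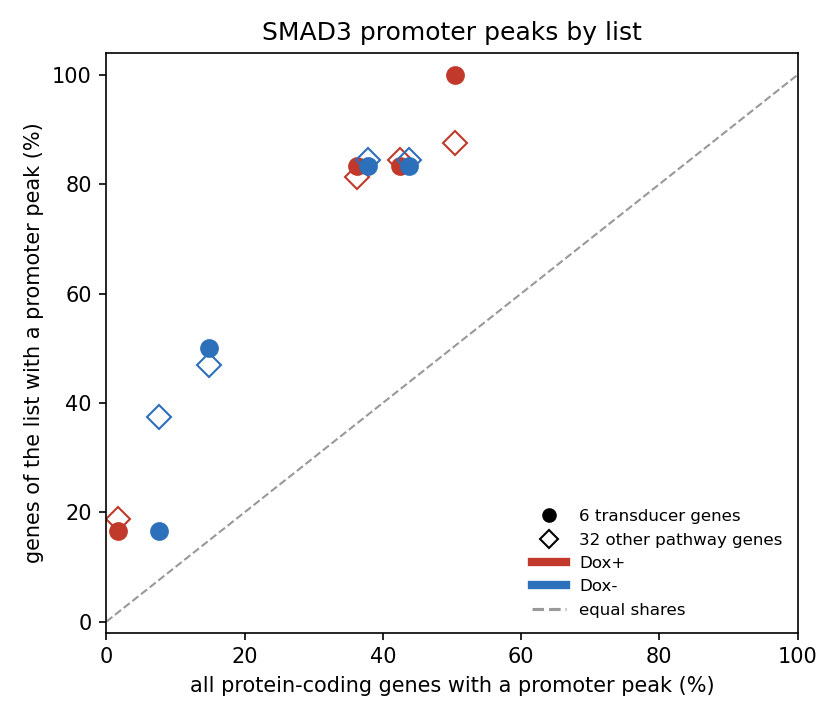
Share of genes with a SMAD3 peak within 1 kb of a transcript start in each merged and replicate list: the x axis gives all protein-coding genes in percent, the y axis the 6 transducer genes (filled circles) or 32 other SMAD pathway genes (open diamonds), red for Dox+ and blue for Dox-. All points lie above the dashed line of equal shares, from 16.7% of the transducer genes in both replicate 1 lists to 100% in Dox+ replicate 2.

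Smad4, the common partner, had the promoter peak with the highest fold of the 5 members in both merged lists. This order did not hold in every replicate: in Dox- replicate 2 its fold was the lowest of the 5, and in Dox+ replicate 2 Smad2 was higher. In the merged Dox+ list, the Smad4 peak (chr18:73702802-73704170) had a fold enrichment over input of 4.43 and a −log10 q-value of 9.47, and only 2.43% of the peaks of that list had a higher −log10 q. In the merged Dox- list its fold was 2.78 and its −log10 q 2.91, with 20.5% of peaks higher. Among the replicates, the fold was 2.8, 2.2 and 5.23 in Dox+ replicates 1, 2 and 3. It was 1.98 and 2.38 in Dox- replicates 2 and 3, and no peak was called in Dox- replicate 1. The high merged value of Dox+ went with replicate 3, while replicate 2 lay within the Dox- range, so the groups overlapped. Smad4 was the only member with a peak in Dox+ replicate 1, a list in which 2.57% of genes had a peak in their window. The Smad4 peaks of all lists reached from 425 bp upstream to 1003 bp downstream of the first start and touched no coding base.

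Smad2, a TGF-β and activin transducer, had a peak across its first starts (chr18:76241005-76242338 in merged Dox+). Its fold was 2.44 in merged Dox+ and 2.35 in merged Dox-. In the replicates the fold was 3.42 in Dox+ replicate 2, 3.5 in Dox+ replicate 3 and 2.45 in Dox- replicate 2. The other 3 replicate lists had no Smad2 peak. The peak of Dox+ replicate 3 was 363 bp wide and lay wholly upstream of the first start, while that of replicate 2 reached from 606 bp upstream to 811 bp downstream.

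Among the BMP transducers, Smad5 had a promoter peak in 5 of the 6 SMAD3 replicate lists, Smad1 in 4 and Smad9 in 1. A promoter peak in at least 5 of the 6 lists was found for 5.06% of protein-coding genes, and Smad4 and Smad5 were among them. Smad5 had no peak in Dox+ replicate 1. Its fold was 1.97 and 2.44 in Dox+ replicates 2 and 3, and 2.64, 2.19 and 2.21 in Dox- replicates 1, 2 and 3, so the groups overlapped. Smad5 was the only member with a peak in Dox- replicate 1, where 10.8% of genes had one in their window. Smad1 had folds of 2 and 2.99 in Dox+ replicates 2 and 3 and of 2.29 and 1.74 in Dox- replicates 2 and 3. The Smad1 peaks lay mostly downstream of the start, in the first exon and intron, with merged peaks from 11 bp upstream to 995 bp downstream in Dox+ and from 34 bp upstream to 1045 bp downstream in Dox-. In the merged lists, 82.6% of the Dox+ peaks and 85.4% of the Dox- peaks had a higher −log10 q than the Smad1 peak. In Dox+ replicate 3, 25.6% of peaks did. Smad9 had a single peak, in Dox+ replicate 2 (chr3:54755186-54756239), with a fold of 1.81, below that of 88.5% of the peaks in its list. Starts of 3 genes annotated as misc_RNA, Gm27271, Gm27301 and Gm27834, lay within 1 kb of the Smad5 locus, and no other gene start lay that close to any locus in the 6 windows.

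**Figure D2:**
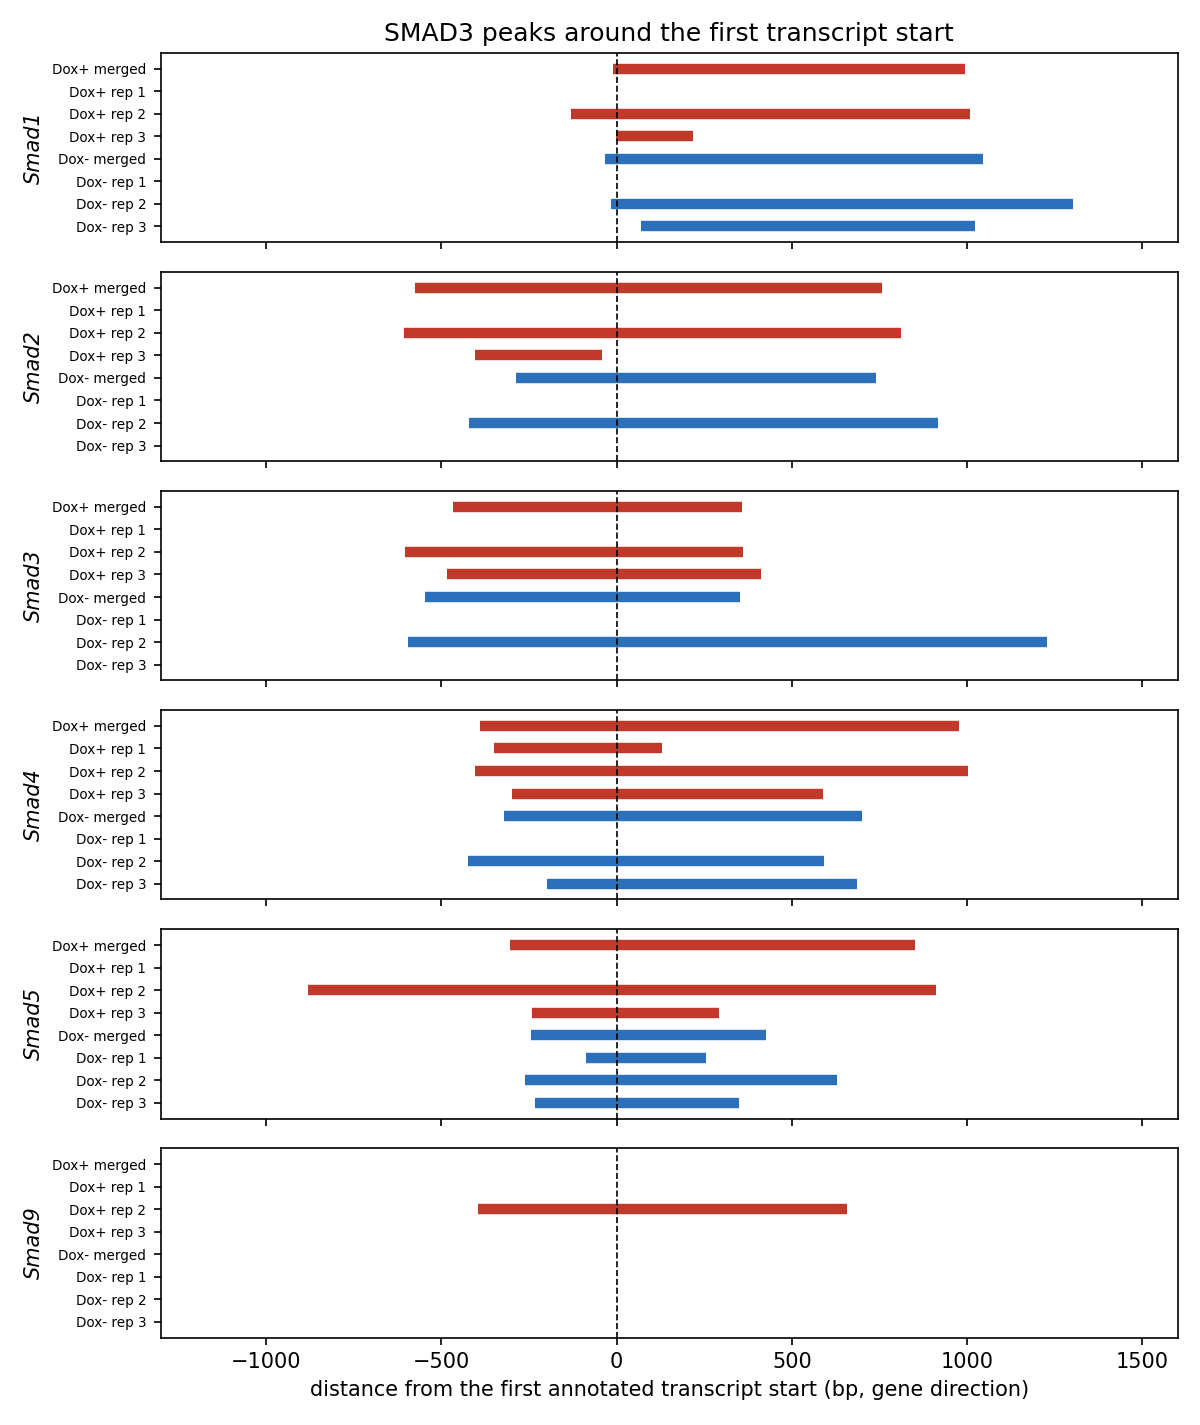
SMAD3 peaks around the first annotated start of each transducer gene: the x axis is the distance in bp along the gene, each row is a list, red for Dox+ and blue for Dox-, and a bar spans 1 peak. Peaks of Smad4 and Smad5 appear in 5 of 6 replicate lists and the peak of Smad9 in 1.

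Where a member had a promoter peak in both merged lists, the peaks lay on the same bases. The shared part was 1007 bp for Smad1, 1027 bp for Smad2, 821 bp for Smad3, 1023 bp for Smad4 and 669 bp for Smad5. For Smad2, Smad4 and Smad5 the Dox- peak lay wholly inside the Dox+ peak, which was wider, and for Smad5 the shared bases made up 57.9% of the Dox+ peak. For Smad1 the Dox+ peak lay wholly inside the Dox- peak. The merged fold was higher in Dox+ than in Dox- for Smad1, Smad2, Smad4 and Smad5 and lower for Smad3 (2.09 and 2.25). These merged values have no replicate error.

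**Figure D3:**
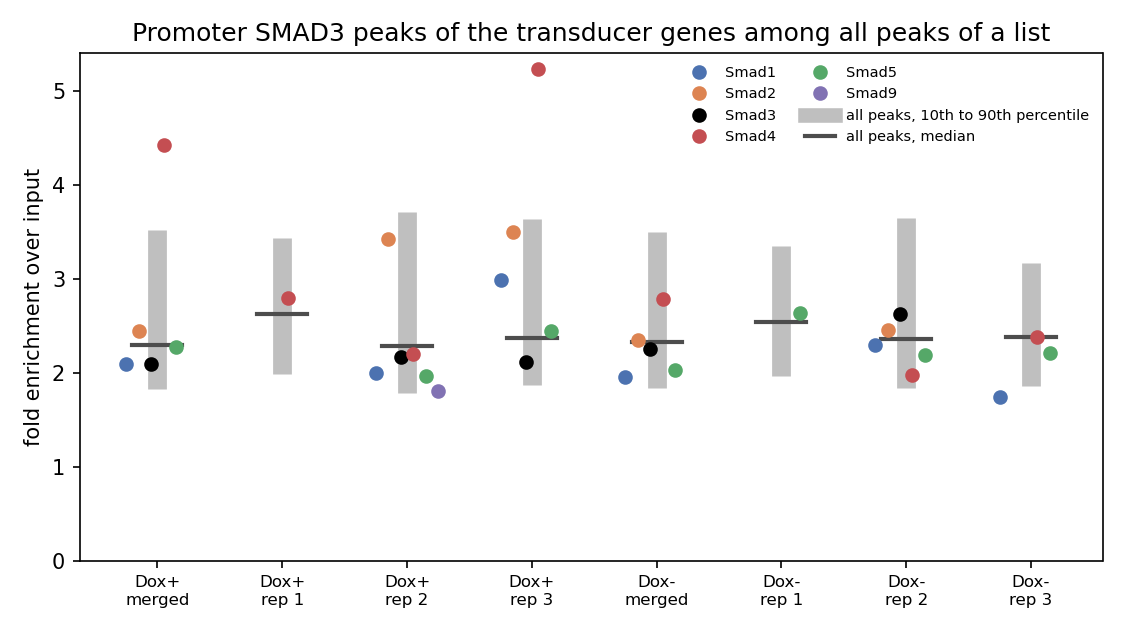
Fold enrichment over input, on a linear axis from 0, of the promoter peak of each transducer gene (colored points) in the 8 SMAD3 lists, with the median and the 10th to 90th percentile of all peaks of the list in grey. Smad4 in merged Dox+ (4.43) and in Dox+ replicate 3 (5.23) lies above the grey range, and most other points lie near the median.

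Dox+ and Dox- were compared for each gene by the length of its window under SMAD3 peaks, 1 value per replicate list. This length is the width of called peaks, so whether dox changed the amount of SMAD3 binding cannot be told from it. The whole lists covered 0.12, 17.2 and 7.4 Mb in Dox+ replicates 1, 2 and 3 and 0.76, 13.5 and 2.1 Mb in Dox-. For Smad3 the length under peaks was 0, 2024 and 2149 bp in Dox+ replicates 1, 2 and 3 and 0, 4981 and 1914 bp in Dox-. The groups overlapped, at 1391 ± 1206 bp (SD, n = 3) and 2298 ± 2513 bp, and the difference of -907 bp had an exact two-sided permutation p of 0.9. For Smad4 it was 481, 1407 and 887 bp in Dox+ and 0, 1017 and 884 bp in Dox-, at 925 ± 464 bp and 634 ± 553 bp (SD, n = 3), with an exact permutation p of 0.6. For Smad5 it was 0, 1792 and 533 bp in Dox+ and 343, 890 and 583 bp in Dox-, with an exact permutation p of 0.9. For Smad1 it was 0, 1.138 and 0.221 kb in Dox+ and 0, 1.32 and 0.952 kb in Dox-, with an exact permutation p of 0.8. For Smad2 it was 0, 1418 and 363 bp in Dox+ and 0, 1340 and 0 bp in Dox-, with an exact permutation p of 0.7. For Smad9 it was 0, 1054 and 0 bp in Dox+ and 0 bp in all 3 Dox- lists. Its exact permutation p of 1 was fixed in advance, because only 1 list was above 0, and decides nothing. With 3 against 3 lists the test cannot give less than 0.1. The groups overlapped for all 6 genes, and no difference exceeded the spread between replicates by this test. Over the 14706 protein-coding genes with any coverage, all Dox+ values lay above all Dox- values for 0.143% and below them for 0.0272%. The sign for Smad3 rested on 1 list: without Dox- replicate 2 the difference was 434 bp. It turned for Smad2 without Dox+ replicate 2 (-265 bp) and without Dox- replicate 1 or 3 (-76.3 bp for each), for Smad5 without Dox+ replicate 2 (-339 bp) and for Smad4 without Dox- replicate 1 (-25.5 bp).

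**Figure D4:**
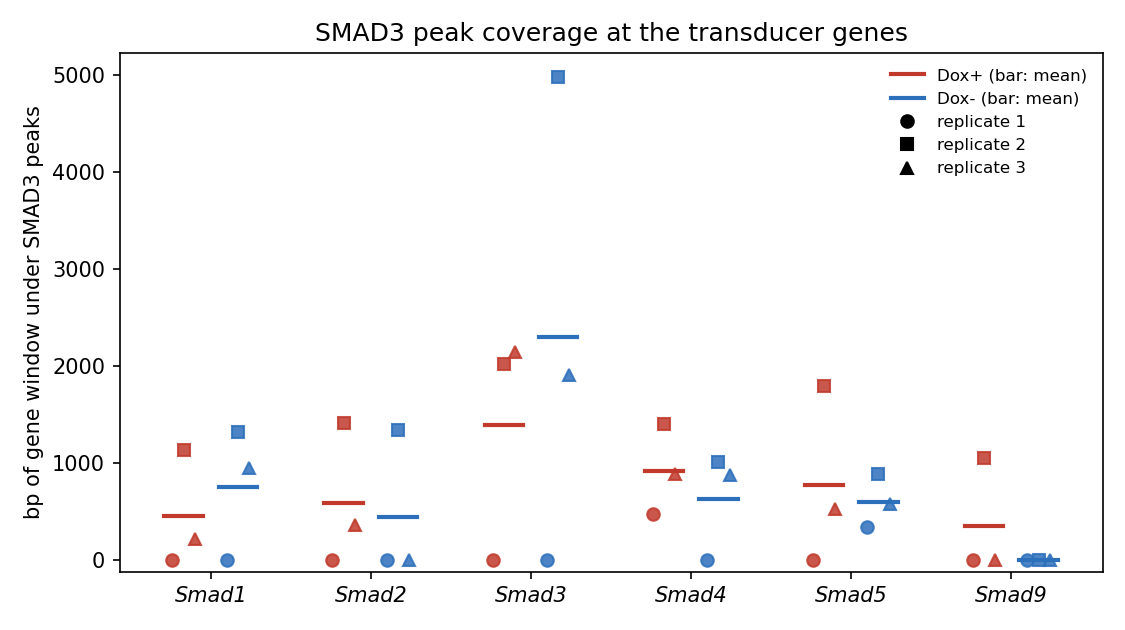
Length of each gene window under SMAD3 peaks in bp (y axis) in every replicate list of Dox+ (red) and Dox- (blue), with bars at the means of 3 lists. The values of replicate 1 are 0 for most genes, and the highest value is Smad3 in Dox- replicate 2, at 4981 bp.

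Smad3 itself, the gene of the precipitated factor, differed from the other members in where its peaks lay. Joining overlapping SMAD3 peaks of the 8 lists gave 17 loci in the 6 windows, and 12 of them were in the Smad3 window, while each of the other 5 genes had a single locus, at its promoter. The Smad3 gene is the longest of the group (111 kb, chr9:63646767-63757994, minus strand). Of its 12 loci, 1 covered the promoter and first exon, 3 touched coding exons, 6 lay in introns, 1 touched a noncoding exon and 1 lay beyond the 3′ end. The Smad3 window also overlaps 1 other coding gene, and whether the locus beyond the 3′ end lies in that gene was not tested. The merged Dox- list had 5 peaks in the Smad3 window and the merged Dox+ list had 1. When a merged peak had to be met by at least 2 replicate lists of its group, 1 was left in Dox-, the site at 42 kb described below, and 1 in Dox+. At least 5 merged Dox- peaks were found for 0.77% of the 1428 protein-coding genes of like window length (the shorter window at least 0.8 times the longer), whose median was 1. The merged Dox- peaks include a peak over coding exons 6 and 7. By covered length, 1.96% and 0.766% of all protein-coding genes had as much as Smad3 or more in Dox- replicates 2 and 3, and 18.3% and 6.63% in Dox+ replicates 2 and 3. Both replicate 3 values include peaks over coding exons away from the promoter. Without those the covered length fell from 1914 to 417 bp in Dox- and from 2149 to 897 bp in Dox+. Shares of genes were not computed without them. Among the replicate lists, 7 loci were found only in Dox-, 2 only in Dox+ and 3 in both, and 8 of the 12 were in a single replicate list. Dox- replicate 2, the longest Dox- list, held 5 of the 6 intronic loci.

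The 3 intronic peaks of the merged Dox- list that were missing from merged Dox+ all lay between coding exons 1 and 2, 41 to 56 kb downstream of the first start. Their central 180 bases are shown because both differential sites described below lie among them.
Smad3 intronic site at 55 kb, chr9:63702674-63702853, minus strand: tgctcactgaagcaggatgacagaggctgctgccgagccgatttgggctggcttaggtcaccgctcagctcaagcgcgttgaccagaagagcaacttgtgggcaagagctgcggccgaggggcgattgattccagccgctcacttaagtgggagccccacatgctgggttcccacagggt
Smad3 intronic site at 51 kb, chr9:63706458-63706637, minus strand: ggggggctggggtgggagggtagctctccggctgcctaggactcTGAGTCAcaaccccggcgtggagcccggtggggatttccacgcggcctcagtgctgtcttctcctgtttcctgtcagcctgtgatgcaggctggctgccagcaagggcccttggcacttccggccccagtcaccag
Smad3 intronic site at 42 kb, chr9:63716323-63716502, minus strand: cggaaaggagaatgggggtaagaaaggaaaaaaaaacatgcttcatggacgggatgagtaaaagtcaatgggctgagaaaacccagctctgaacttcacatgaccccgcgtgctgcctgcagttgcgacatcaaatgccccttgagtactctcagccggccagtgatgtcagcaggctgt
The site at 51 kb held 1 AP-1 match, TGANTCA, which 6.87% of the central windows of the 11512 merged Dox- peaks hold. None of the 3 held CAGAC (in 33.2% of such windows), GGCGCC (14.6%), GGGNGTGG (10.8%), ATGCAAAT (0.478%) or GTCTAGAC (0.226%). Their GC content was 60.6%, 66.7% and 51.1%, against a median of 62.2% over those windows. In merged Dox- these sites had folds of 3.67, 3.18 and 3.33, and 8.01%, 14.6% and 12.4% of the list had higher folds, so they stood above the Smad3 promoter peak of the same list (2.25, 56.4%). The site at 42 kb was a peak in Dox- replicates 2 and 3, with folds of 2.62 and 2.56, and in no Dox+ list. The site at 55 kb was a peak in Dox- replicate 2 with a fold of 2.08 and also in Dox+ replicate 2, with a fold of 2.82. The site at 51 kb was a peak in Dox- replicate 2 alone, with a fold of 2.71. None of the 3 touched an exon or met an OCT4 peak.

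In the authors' table of sites that differ in SMAD3 between Dox+ and Dox-, 2 sites lay in the 6 windows, and both were in Smad3 introns with the lower mean in Dox+. At chr9:63716094-63716888 the authors' mean log2 concentration of reads was 0.81 in Dox+ and 3.18 in Dox-. At chr9:63702546-63703024 it was 1.22 in Dox+ and 2.80 in Dox-. These means have no error here because the table holds no replicate values. At chr9:63702546-63703024 the peak folds of replicate 2 went the other way, at 2.82 in Dox+ and 2.08 in Dox-. When the tested regions were rebuilt as regions found in at least 2 of the 6 replicate lists, 8 lay in the member windows, 4 of them in Smad3, and 6 were not listed. Over all 13217 rebuilt regions, 6.84% were listed as higher in Dox- and 8.9% as higher in Dox+, 15.7% in all. The promoter regions of Smad1, Smad2, Smad3, Smad4 and Smad5 were all among the 6 that were not listed, and so was the region over Smad3 exons 6 and 7. The Smad9 locus, found in 1 list, was not a tested region.

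**Figure D5:**
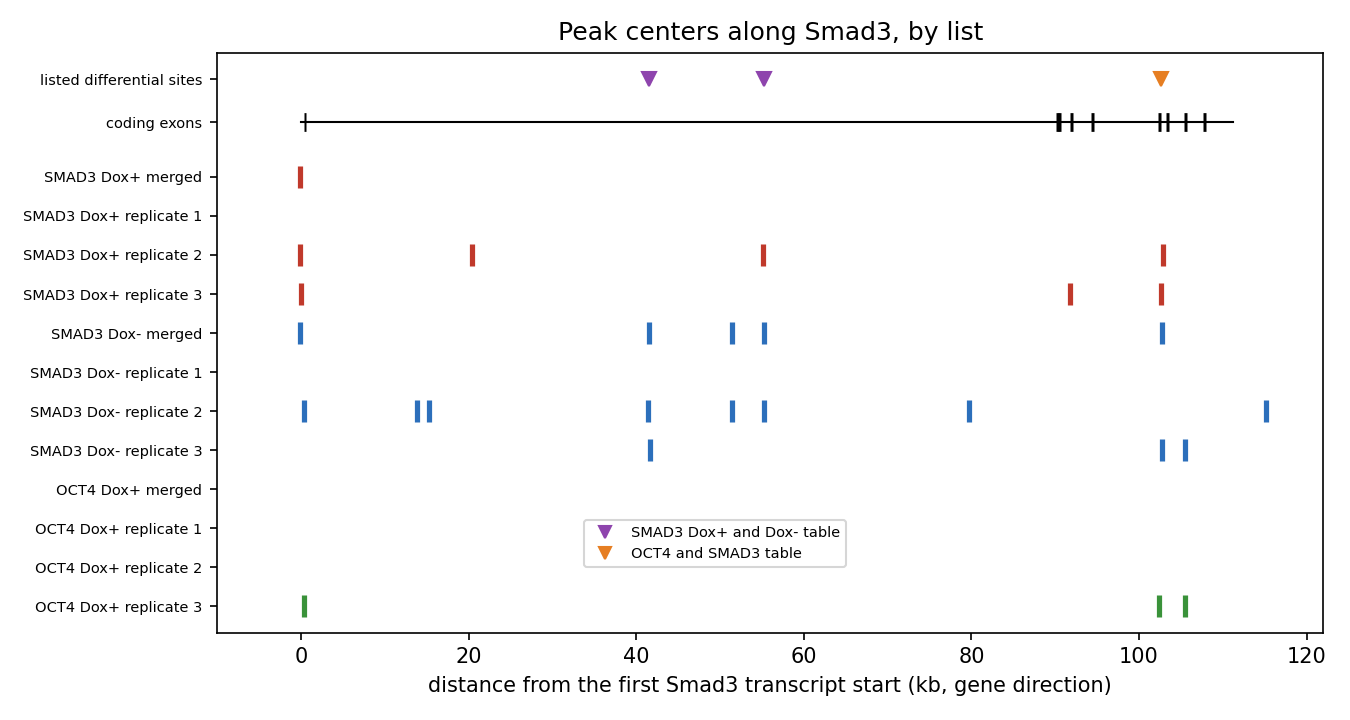
Peak centers along Smad3 by list, with the distance from the first transcript start in kb on the x axis, coding exons as black boxes (widened for visibility), Dox+ SMAD3 in red, Dox- SMAD3 in blue, OCT4 in green and listed differential sites as triangles. The intronic cluster at 41 to 56 kb holds 3 merged Dox- peaks and 2 listed sites, and the 3 OCT4 marks all lie at coding exons.

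OCT4, which binds the octamer and is made from the induced cassette, had no peak in any of the 6 windows in the merged list, where 4.85% of protein-coding genes had one and 0.428% had one within 1 kb of a start. Replicates 1 and 2 had none either, where 2.89% and 2.87% of genes had one in the window and 0.173% and 0.26% within 1 kb of a start. Replicate 3, the shortest OCT4 list with 102 regions, had 3 peaks, all in Smad3 and all over coding exons, in a list where 0.337% of genes had a peak in the window and 0.0501% within 1 kb of a start. They lay over exon 1 (chr9:63757506-63757743, fold 3.12), exon 6 (chr9:63655509-63655816, fold 2.28) and exon 8 (chr9:63652415-63652663, fold 3.27). These folds were the lowest of the list: 98%, 99% and 97.1% of its regions had a higher fold, and the 10th percentile of the list was 5.23. The −log10 q-values were 7.48, 2.18 and 5.13. The peak over exon 8 is shown whole, with the coding bases in capitals, since it carries the exon with short stretches of intron on both sides.
OCT4 replicate 3 peak at Smad3 exon 8, chr9:63652415-63652663, minus strand: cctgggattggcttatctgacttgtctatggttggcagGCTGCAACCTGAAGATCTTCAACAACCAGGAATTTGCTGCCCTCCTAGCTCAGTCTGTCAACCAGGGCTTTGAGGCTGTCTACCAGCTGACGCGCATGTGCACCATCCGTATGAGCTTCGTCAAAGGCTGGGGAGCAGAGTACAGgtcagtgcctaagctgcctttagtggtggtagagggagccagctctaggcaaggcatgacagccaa
All 145 bases of the exon were inside, with 38 bases of the intron before it and 66 of the intron after it. The 3 peaks together covered 530 of the 1275 coding bp of Smad3 (41.6%). In replicate 3, 4 of 102 regions touched any coding sequence (3.92%) and 3 of those 4 were in Smad3. In replicates 1 and 2, 0.593% and 1.08% of regions touched coding sequence and none was in Smad3.

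The Smad3CA retrovirus carries Smad3 cDNA, in which the exons are joined without introns, and reads inside an exon do not show which copy they came from. The part of retroviral copies in the exonic peaks was not tested, and the endogenous and retroviral exons cannot be told apart in these files. SMAD3 peaks also touched Smad3 coding exons. Of all peaks of the SMAD3 replicate and merged lists, 19.5% to 39.9% touched coding sequence of some gene. Over the 9 coding exons, 5 were touched by at least 1 list of either factor: exon 1 by 6 lists, exon 6 by 4, exons 7 and 8 by 2 each and exon 4 by 1. Exons 2, 3, 5 and 9 were touched by none. SMAD3 peaks covered 3.37% of the coding bases in merged Dox+ and 30.4% in merged Dox-. By replicate it was 0%, 3.45% and 30.1% in Dox+ and 0%, 16.2% and 38.9% in Dox-, so the groups overlapped. At exons 6 and 7 a locus of 1220 bp was found in Dox+ replicates 2 and 3, Dox- replicate 3 and merged Dox-, and its peak of Dox+ replicate 2 lay in the intron between them. The exon 4 peak of Dox+ replicate 3 was centered 349 bp from the start of a shorter Smad3 transcript, and in Dox- replicate 2 the noncoding-exon peak lay 499 bp from another start. Leaving out the peaks over coding exons away from the promoter, the covered length of the Smad3 window was 0, 2024 and 897 bp in Dox+ and 0, 4981 and 417 bp in Dox-, with a difference of -826 bp and an exact permutation p of 0.9. That setting was chosen after seeing the data.

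The Smad3 promoter locus was found in Dox+ replicates 2 and 3 and in Dox- replicate 2, with folds of 2.17, 2.11 and 2.63. It reached from 605 bp upstream into exon 1, and in Dox- replicate 2 it ran 1228 bp downstream. Of the merged Dox+ peak, 5.19% of the bases were coding and 468 of 828 bp lay upstream of the gene, outside any cDNA. In the authors' table of sites that differ between OCT4 and SMAD3 in Dox+ cells, 2 sites were in the member windows. The region over exon 6 (chr9:63654862-63655816) had an authors' mean log2 concentration of 5.50 for OCT4 and 2.54 for SMAD3, and the Smad5 promoter (chr13:56702131-56703922) had 2.43 for OCT4 and 4.15 for SMAD3. Of the OCT4 lists only replicate 3 had a peak over exon 6, with a fold of 2.28, below that of 99% of its list. The retrovirus carries this exon too, and its part in the OCT4 mean was not tested. Over the 9903 rebuilt regions of that comparison, 13.6% were listed as higher for OCT4 and 6.64% as higher for SMAD3, 20.3% in all. In the member windows 6 regions were tested and 4 were not listed, the promoters of Smad1, Smad2, Smad3 and Smad4.

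The other genes of the pathway were described with the same windows, in a list of 32 genes. A SMAD3 promoter peak was present in both merged lists for 27 of the 32, where 33.6% of all protein-coding genes had one, and the other 5 (Acvr1c, Acvrl1, Bmpr1b, Foxh1 and Sp1) had one in neither merged list. By role, this held for 2 of 2 inhibitory SMADs, 4 of 4 nuclear corepressors, 5 of 5 ubiquitin ligases, 3 of 3 receptor anchors and adaptors, 4 of 7 type I receptors, 4 of 4 type II receptors, 2 of 4 DNA-binding partners and 2 of 2 coactivators. The phosphatase gene Ppm1a also had both. In the table of SMAD3 in Dox+ and Dox-, 4 of the 32 genes had a site with the lower mean in Dox+, where 3.85% of all protein-coding genes had one, and 2 had a site with the higher mean in Dox+, where 6.64% had one. The lower sites were at both inhibitory SMADs, whose proteins limit receptor signaling. The authors' mean log2 concentration was 2.42 in Dox+ and 4.16 in Dox- at a site overlapping the outer edge of the Smad6 window, and 2.8 and 4.51 at Smad7. The corepressor gene Ski (1.3 and 4.05) and the activin receptor gene Acvr1b (1.37 and 3.28) had the other 2. Higher in Dox+ were sites in the windows of Tgif1 (3 and 1.5), a corepressor gene, and Hgs (4.79 and 3.73), an adaptor gene. These sites lay in the flanks, outside the spans of Tgif1 and Hgs.

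In the table of OCT4 and SMAD3, the log2 mean was higher for OCT4 at Tgif2 (5.08 and 4.03) and at Nedd4l (5.03 and 3.88). It was also higher at a site overlapping the outer edge of the Acvrl1 window (5.3 and 2.86). No OCT4 list had a peak inside the windows of Tgif2 and Acvrl1. Each pair of means comes from different antibodies and has no error here. The log2 mean was lower for OCT4 at Skil (3.58 and 5.6), at a further site in the flank of Tgif2 (1.12 and 3.26) and at Acvr2a (1.12 and 3.45). A site higher for OCT4 was in the window of 4.17% of protein-coding genes, and a site higher for SMAD3 in that of 5.15%. Nedd4l, a ubiquitin ligase gene, was the only pathway gene of the 32 with a merged OCT4 peak (chr18:64886893-64887094, fold 6.23). There the authors' pooled signal, ChIP minus input coverage averaged over the central 200 bp, was 20.6 for OCT4. For SMAD3 it was 7.32 in Dox+ and 5.49 in Dox-. These pooled values have no replicate error. Of the OCT4 replicate lists, only replicate 1 had a peak in the Nedd4l window.

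Genes whose covered lengths were most like those of a member over the 9 replicate lists were found by the Euclidean distance of log2(covered bp + 200). They were Zfp821, Mtx2 and Sap130 for Smad2, at distances of 0.09 to 0.13, Mgat3, Tbce and Lca5l for Smad1 (0.42 to 0.50), Ubr3, Champ1 and Unc5c for Smad5 (0.40 to 0.51) and Trappc10, Tut4 and Calm2 for Smad4 (0.77 to 0.83). For Smad3 they were Nfkbia, Camk2n2 and Ccdc117, at 2.37 to 2.38. Without the OCT4 replicate 3 list, which holds the exonic peaks of Smad3, the same 3 genes lay at 0.49 to 0.54, a setting chosen after seeing the data. Smad9 was left out because only 1 list covered it. The lists share their inputs, and a small distance says only that the same lists held peaks of like length.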

How the data were processed

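Peaks were described in 13 samples: 9 ChIP libraries in 3 groups of 3, and 4 inputs, grouped by the labels. The authors trimmed reads (Trimmomatic 0.36), aligned them to mm10 with Bowtie 2, removed duplicates, mapping quality under 40 and blacklisted regions, and called peaks with MACS2 2.1.0 against pooled inputs, on each replicate and on merged replicates. OCT4 peaks were narrow (q 0.01) and SMAD3 peaks broad (cutoff 0.1). The deposited lists give a fold enrichment over input (a ratio on a linear scale) and the −log10 of a q-value, which for broad peaks is an average and can fall below the cutoff. The deposited matrices hold a signed score, coverage of pooled ChIP less that of pooled input after the authors had brought both to 1-fold genome coverage. The DiffBind tables give, per the file headers, the authors' log2 mean concentration of each group, with a fold, a p-value and an FDR that were not used, and list only sites past both thresholds, an FDR of 0.1 and a log2 fold of 1 in either direction. Gapped-peak lists were not used.

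Several summits of 1 OCT4 region were counted once. Windows were the GENCODE M21 gene span plus 10 kb, and overlap meant 1 bp. Covered lengths were compared by exact two-sided permutation tests. The members and lists were chosen with earlier results of these data known. Named genes were the 6 members, genes with a start within 1 kb of a locus, pathway genes with a merged OCT4 peak or listed site, and the 3 nearest genes by covered length for members covered in at least 3 lists. The 5 pathway genes without a merged promoter peak were named after their values were seen. RefSeq promoters of 4 members were matched by symbol. Python 3.11.15, numpy 2.4.6, pysam 0.24.0 and matplotlib 3.10.9 were used, and both the overlap and the permutation code had been tested on simulated data. Alternatives were other flanks, stricter q-values, equal list lengths, scaling by covered Mb, start windows, peak support by replicates, a replicate block and leaving out each replicate.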

Additional observations from a re-analysis of the deposited data

How the results depend on the processing

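No alternative gave a covered-length difference past a threshold, and with 3 against 3 lists none could fall below 0.1. The difference turned sign for Smad2 (-35.7 bp) and Smad5 (-9.33 bp) with no flank, for Smad1 with peaks at a q-value up to 0.01 (73.7 bp), and for Smad5 with the 420 strongest peaks of each list (-114 bp) and per Mb covered by the list (-204 bp per Mb). Leaving out 1 replicate at a time gave -683 to -23 bp for Smad1, -265 to 594 bp for Smad2, -2060 to 434 bp for Smad3, -25.5 to 513 bp for Smad4, -339 to 557 bp for Smad5 and 0 to 527 bp for Smad9. The causes were not tested.

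With the replicate block the differences are those without it, from -907 bp for Smad3 to 351 bp for Smad9. Exact sign-flip permutation p-values, which cannot fall below 0.25, were 0.5, 0.5, 1, 0.25, 1 and 1 for Smad1, Smad2, Smad3, Smad4, Smad5 and Smad9. That of Smad9 was fixed, because only 1 list was above 0. Deviations of same-numbered Dox+ and Dox- lists correlated across 14706 genes at 0.44, 0.26 and -0.07. Those of unlike-numbered lists correlated at -0.45 to 0.28. These ranges overlapped, so the numbers were not taken to pair the samples.

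Asking for a q-value 10 times lower left 2 of the 5 members with a merged peak in Dox+ and 2 in Dox-, at 2 and 4 loci. In Dox+ the promoter peaks of Smad2 and Smad4 were left. In Dox- the only promoter peak left was that of Smad4, and the other loci were the intronic Smad3 sites. The share of all protein-coding genes with a peak at that cutoff was not computed. Merged Dox- peaks backed by at least 2 replicate lists numbered 4 of 9, in 4 members: the Smad2 peak and 4 of the 5 Smad3 peaks, its promoter included, were lost. Those within 1 kb of a start numbered 5. With a 20 kb flank all 6 members had a merged peak in both groups, beside 57.6% of protein-coding genes in Dox+ and 53.3% in Dox-. The member gained was Smad9, through peaks beyond its 10 kb window, which already holds 2 other coding genes. The other window and overlap settings kept every count of members and sites within 1.5 times its value. The alternative width for OCT4 signal was not run, because no OCT4 region lay in a member window. Depth per replicate is unknown, which limits every statement on a missing peak.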

Other observations

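The coding sequences of the cassette genes were looked at after the Smad3 exon peaks had been seen. No OCT4 list had a peak touching the coding sequence of Pou5f1 (the gene of OCT4), Sox2, Klf4 or Myc. In Dox+ replicates 2 and 3, SMAD3 peaks touched 336 and 933 coding bp of Sox2, 733 and 896 bp of Klf4 and 677 and 515 bp of Myc. In Dox-, replicate 2 touched 525 bp of Sox2 and 439 bp of Klf4, and replicate 3 touched 678 bp of Klf4 and 579 bp of Myc. No SMAD3 list had a peak touching the coding sequence of Pou5f1.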
